A study of Mus musculus with 9 samples.

Results

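Collagen genes were followed in the RNA of D2.0R cells, a mouse mammary tumour line grown in 3D culture on either of 2 matrices. Of 23309 gene symbols in the deposited tables, 45 had a symbol of the form Col, number, a, number. One of them, Col4a3bp, codes for the ceramide transfer protein and is no collagen, so 44 collagen chain genes with 51 transcripts remained. Cells were on basement membrane extract (BME) for 1 day, on BME for 5 days, or on BME with added type I collagen (COL1) for 5 days, with 3 libraries in each group. BME is a gel extracted from a mouse sarcoma, rich in laminin and type IV collagen. Per the methods of the study it was growth factor-reduced, the medium held little serum, the cells were freed from the gels with EDTA, and each group had 3 biological replicates. D2.0R cells stay dormant on BME and resume growth where COL1 is present, so the design sets the dormant state against the growing one at day 5 and against the early dormant state. All groups are the same line, and none of them was grown without BME.

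A collagen is a trimer of chains wound into a triple helix, and some types need chains from more than 1 gene. Fibrillar types form the fibres of connective tissue, type IV forms the sheet of basement membranes, type VI forms beaded filaments close to basement membranes, and type VII anchors epithelium to the tissue underneath. The remaining families decorate fibrils, form hexagonal lattices, sit in the plasma membrane, or carry sugar chains in the basement membrane.

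Values are FPKM, fragments scaled by transcript length and library size, summed over the transcripts of a gene. A chain was counted as expressed with at least 1 FPKM in a library. By this rule 16 of 44 chains were expressed, 28 stayed below 1 FPKM in all 9 libraries, and 2 of these, Col9a1 and Col13a1, were listed at 0 in all of them. The lowest of the expressed chains were Col20a1, with a highest value of 1.17 FPKM, and Col11a2, with 2.68. The highest of the others were Col5a2 at 0.872 and Col10a1 at 0.675. The number of chains at 1 FPKM or more was 15 to 16 per library at day 1, 14 to 16 at day 5 on BME and 13 in each BME + COL1 library. Expressed chains came from 5 of 11 fibrillar genes (Col1a1, Col5a1, Col5a3, Col11a2 and Col27a1), 1 of 6 type IV genes (Col4a5), 3 of 6 type VI genes (Col6a1, Col6a2 and Col6a3), the single type VII gene, 1 of 3 genes of hexagonal networks (Col8a1), and 3 of 9 genes of fibril-associated collagens with interrupted helices (Col12a1, Col16a1 and Col20a1). Col18a1 of the multiplexins (1 of 2) and Col23a1 of the transmembrane collagens (1 of 4) completed the set, and neither Col26a1 nor Col28a1 was expressed.

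Sequence assigned to annotated transcripts, taken as coverage times transcript length, came to 7.21 to 9.37 gigabases per library. The BME + COL1 libraries lay closest together, with a median SD of 0.08 over the tested chains on the log2 scale, against 0.22 for day 1 and 0.42 for day 5 on BME. Replicate b of BME day 5 stood apart, with its median gene at -0.27 on the log2 scale from its mean over the libraries. Replicate c of BME day 1 lay apart from replicates a and b in several chains. Among others it was high in Col6a1, Col6a2, Col6a3, Col11a2, Col20a1 and Col23a1, and low in Col1a1, Col5a2 and Col8a1. Of 11 mammary epithelial markers, 6 reached 1 FPKM, with Krt8 and Krt18 the most abundant, whereas Epcam reached at most 1.59 FPKM and Krt5, Krt19 and the claudin genes stayed below 1. In bulk RNA, fewer cells that express a chain and less of it per cell cannot be told apart.

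**Figure D1:**
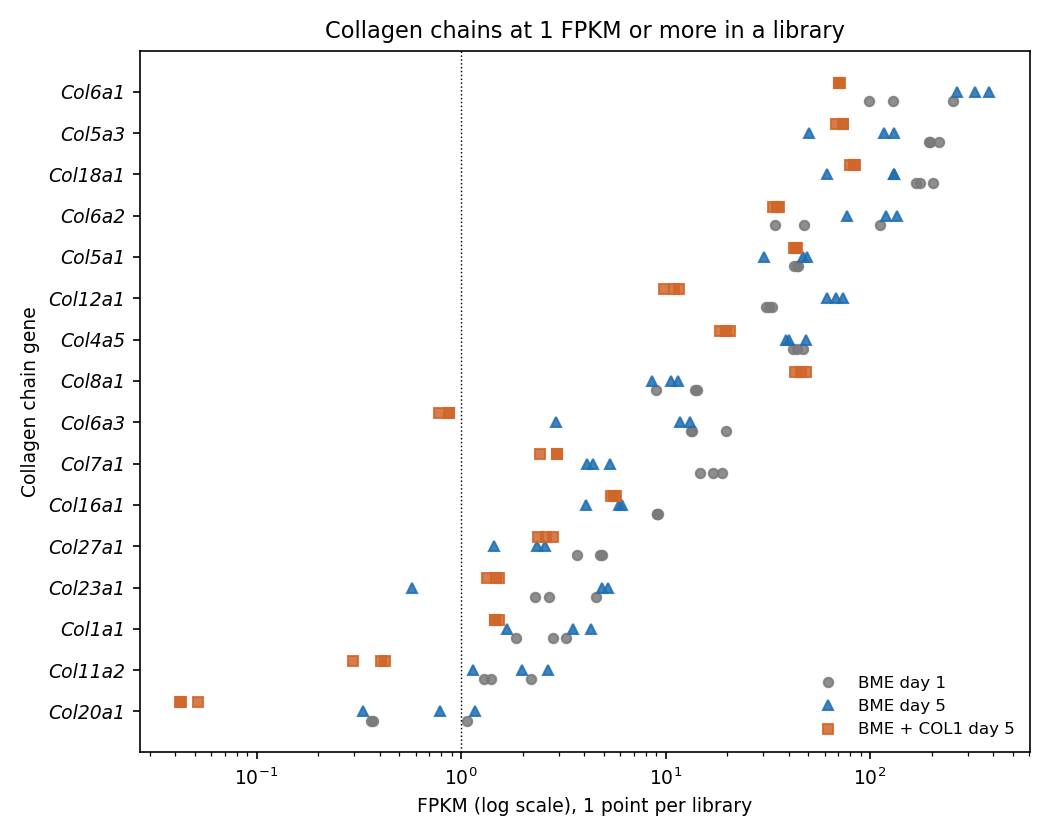
FPKM of the 16 expressed collagen chains on a log scale, 1 point per library, with the dotted line at 1 FPKM. Col6a3, Col11a2 and Col20a1 lie below the line in every BME + COL1 library, and Col8a1 is the chain whose BME + COL1 points lie to the right of its BME points.

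The 44 chains together took 0.197% to 0.267% of all FPKM at day 1, 0.218% to 0.285% at day 5 on BME, and 0.0901% to 0.0968% on BME + COL1. The BME + COL1 libraries therefore lay below every BME library in this share. The make-up also differed. Type VI chains took 21.2% to 39.5% of the chain FPKM at day 1, 50.8% to 55.5% at day 5 on BME and 26.4% to 27.6% on BME + COL1. Col8a1 took 0.873% to 2.07% in the BME libraries and 11.3% to 12.1% on BME + COL1. Mean levels ran from Col5a3 (202 FPKM), Col18a1 (182) and Col6a1 (161) downward at day 1, and libraries of neighbours in that order overlapped. On BME at day 5 Col6a1 came first with 326 ± 57.9 FPKM (SD, n = 3) and all its libraries lay above those of Col6a2 (111 ± 30.5), which overlapped with Col18a1 and Col5a3. On BME + COL1 Col18a1 (82.6 ± 2.43) lay above Col5a3 (71.9 ± 3.11), and Col5a3 and Col6a1 (70.7 ± 0.32) overlapped.

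**Figure D2:**
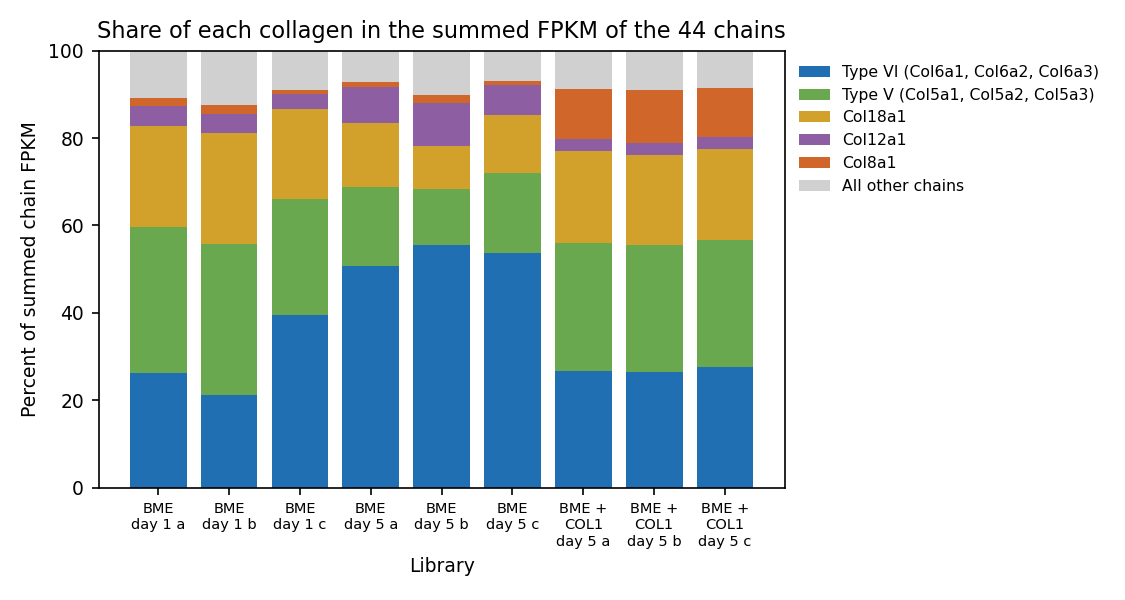
Share of each collagen in the summed FPKM of the 44 chains, in percent, with 1 stacked bar per library. Type VI makes up 50.8% to 55.5% of the bars of BME day 5, and Col8a1 11.3% to 12.1% of the bars of BME + COL1.

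Levels were compared between the groups with limma on log2 of FPKM plus 0.1, fitted over the 10497 genes whose mean reached 1 FPKM. Of the 16 expressed chains, 15 passed this filter and Col20a1, with a mean of 0.470 FPKM, did not. Col6a3 and Col11a2 passed it through their BME libraries, since both were below 1 FPKM on BME + COL1. A chain is called higher or lower where the p-value adjusted by Benjamini and Hochberg over all tested genes is under 0.05. At day 5, 8 chains were higher on BME than on BME + COL1, 1 was lower and 6 had no call. Over all tested genes 30.3% were called higher and 45.3% lower. The median change of the chains was 0.76 on the log2 scale and that of all tested genes -0.18. Among the 13 chains that averaged 1 FPKM or more in every group, 6 were higher and 1 was lower. With each library rescaled to a common sum of FPKM (TPM), 12 chains were higher and 1 was lower, and over all tested genes 4858 were higher and 3327 lower, against 3179 and 4756 with FPKM as deposited.

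Between day 1 and day 5 on BME, 2 chains rose, 5 fell and 8 had no call, beside 9.09% of all tested genes that rose and 22.2% that fell. The median change of the chains was -0.25 and that of all genes -0.15. Between BME at day 1 and BME + COL1 at day 5, 1 chain was higher on BME + COL1, 10 were lower and 4 had no call (1 higher and 8 lower of the 13 chains that averaged 1 FPKM or more in every group), beside 34.2% of all genes that were higher and 31.8% that were lower. With TPM, 3 chains rose and 5 fell with time, beside 1534 and 2236 of all genes (954 and 2327 as deposited), and on BME + COL1 1 was higher and 12 lower than at day 1, beside 2638 and 4870 of all genes (3588 and 3343). In the latter comparison the medians with FPKM as deposited were -1.07 for the chains and 0.03 for all genes. The comparisons share groups, so their values for a chain are not independent of each other. The 3 libraries of a group lay wholly to 1 side of the other group in 9 of 15 chains between the matrices (80.1% of all tested genes), in 8 with time on BME (49.9%) and in 13 between BME + COL1 and day 1 (79.9%). Without replicate b of BME day 5 the counts were 12 higher and 1 lower between the matrices, 5 that rose and 5 that fell with time, and 1 higher and 12 lower on BME + COL1 than at day 1. Over all tested genes the counts without that library were, in the same order, 3609 and 4675, 1267 and 2626, and 4262 and 3820.

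**Figure D3:**
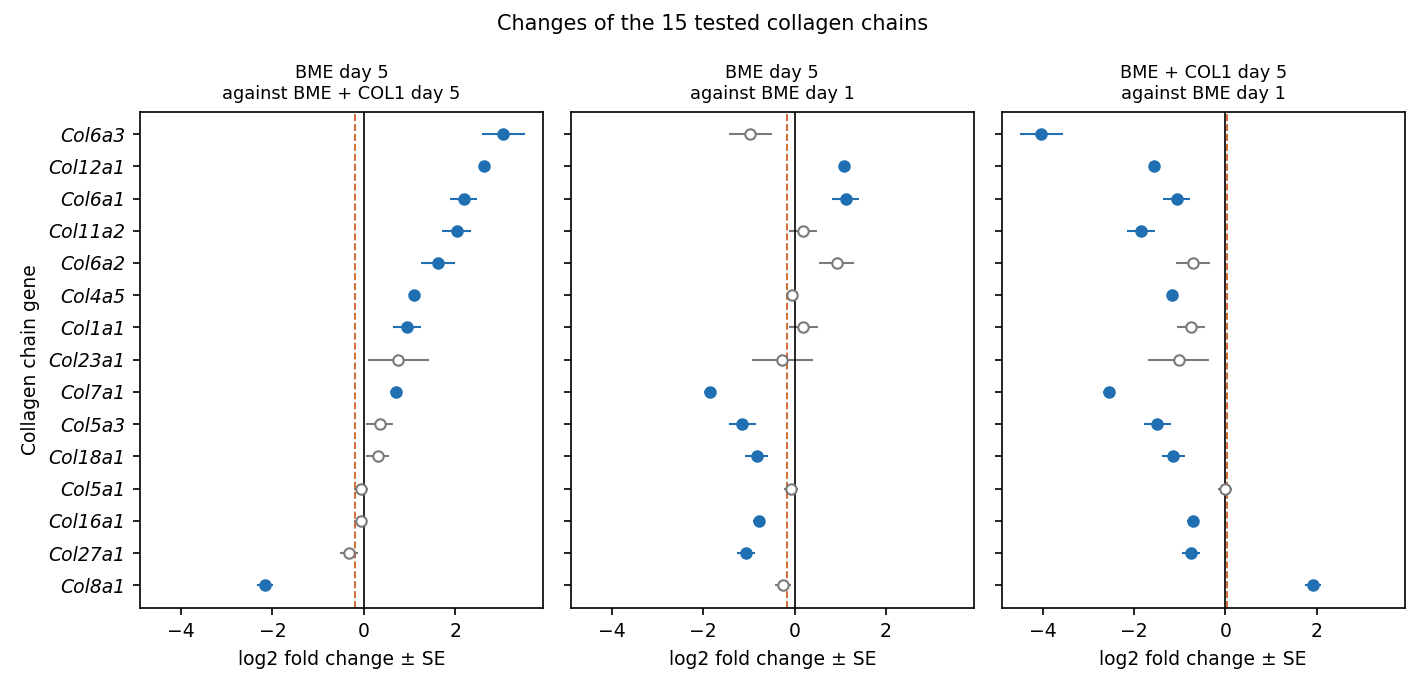
Log2 fold change of the 15 tested chains in the 3 comparisons, with its standard error (bars); filled points have an adjusted p under 0.05 from limma and the dashed line marks the median of all tested genes. Col6a3 has the highest value on BME against BME + COL1 at day 5 (3.06), and Col8a1 is the chain called lower (-2.16).

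Fibrillar collagens were led by type V, which sets the diameter of type I fibrils and is built from Col5a1 with Col5a2 or with Col5a2 and Col5a3. Col5a1 measured 43.7, 44.5 and 42.4 FPKM at day 1, 47.1, 30.4 and 49.2 at day 5 on BME, and 43.4, 44.1 and 42.3 on BME + COL1. Col5a3 measured 196, 194 and 217 FPKM at day 1, 117, 50.2 and 131 at day 5 on BME, and 74.0, 73.4 and 68.3 on BME + COL1. Col5a2, the chain that both common forms share, measured 0.622, 0.872 and 0.264 FPKM at day 1, 0.101, 0.0528 and 0.0852 at day 5 on BME, and 0.0725, 0.113 and 0.0586 on BME + COL1. By the rule of 1 FPKM, 2 of the type V chains were thus expressed in each library and the third was not in any. With TPM, Col5a2 also reached a value of 1 in a library. Col5a3 was the higher of the expressed pair throughout. The low values on BME at day 5 were those of replicate b, in which Col5a1 and Col5a3 had the lowest level of the group.

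Col5a1 had no call in any comparison, with log2 changes of -0.07 between the matrices (SE 0.16, adjusted p = 0.719, limma), -0.08 with time (SE 0.16, adjusted p = 0.726) and -0.01 between BME + COL1 and day 1 (SE 0.16, adjusted p = 0.964). The sign of the first of these was positive with TPM (0.28) and without replicate b of BME day 5 (0.15), and in both cases it was called (adjusted p = 0.0233 and 0.0115, limma). Col5a3 fell by 1.14 with time on BME (SE 0.30, adjusted p = 0.0206, limma) and was lower by 1.49 on BME + COL1 than at day 1 (SE 0.30, adjusted p = 0.00167). Between the matrices it had no call (0.35, SE 0.30, adjusted p = 0.301), and without replicate b of BME day 5 it was higher on BME by 0.78 (adjusted p = 1.1e-05, limma). Its fall with time had an adjusted p of 0.0591 to 0.0616 when any one of the day 1 libraries was left out, and of 0.0794 with only the 6 libraries compared.

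The 200 bases that lie 250 to 51 bases before the annotated starts of these genes are shown because 2 of the chains were expressed and their partner was not. They are read from the mm9 build of the mouse genome, 5′ to 3′ along the gene, and hold no annotated exon. Capitals mark matches, on either strand, to the GC box (GGGCGG), the CCAAT box, the TATA box (TATAAA) or the AP-1 site (TGANTCA), and none of these matches overlaps another. Of 25831 windows placed in the same way before all annotated starts, 32.3% held the GC box, 29.8% CCAAT, 8.27% TATAAA and 5.24% TGANTCA. Col5a1 lies on chromosome 2 (chr2:27741945-27895030, plus strand, 66 exons), Col5a2 on chromosome 1 (chr1:45431176-45560127, minus strand, 54 exons) and Col5a3 on chromosome 9 (chr9:20574494-20619478, minus strand, 67 exons).
Col5a1, chr2:27741695-27741894, plus strand: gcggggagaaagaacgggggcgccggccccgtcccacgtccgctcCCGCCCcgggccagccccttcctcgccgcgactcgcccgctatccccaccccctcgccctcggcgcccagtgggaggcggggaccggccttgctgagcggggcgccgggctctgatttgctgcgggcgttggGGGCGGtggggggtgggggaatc
Col5a2, chr1:45560178-45560377, minus strand: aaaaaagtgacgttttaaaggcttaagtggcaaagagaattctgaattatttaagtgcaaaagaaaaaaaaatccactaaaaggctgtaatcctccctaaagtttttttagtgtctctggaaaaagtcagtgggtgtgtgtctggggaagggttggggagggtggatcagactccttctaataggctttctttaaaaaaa
Col5a3, chr9:20619529-20619728, minus strand: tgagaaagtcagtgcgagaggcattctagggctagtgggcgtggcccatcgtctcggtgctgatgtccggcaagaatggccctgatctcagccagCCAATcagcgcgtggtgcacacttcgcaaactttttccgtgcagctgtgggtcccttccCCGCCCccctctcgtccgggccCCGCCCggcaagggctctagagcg
The windows of the expressed chains held 25 (Col5a1) and 15 (Col5a3) CG dinucleotides, and that of Col5a2 held 1. The median of all windows was 6. Matches to the GC box stood in the windows of Col5a1 and Col5a3 and none of the searched motifs in that of Col5a2, which says no more than that these letters are not in this stretch.

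The other fibrillar chains were lower. Col1a1, the main chain of type I collagen, measured 2.83, 3.24 and 1.85 FPKM at day 1, 3.54, 1.69 and 4.32 at day 5 on BME, and 1.54, 1.46 and 1.46 on BME + COL1. Its partner Col1a2 stayed between 0.0231 and 0.111 FPKM. Col1a1 was higher by 0.95 on BME than on BME + COL1 (SE 0.31, adjusted p = 0.0198, limma), and without replicate c of BME day 5 the difference was 0.68 with an adjusted p of 0.0801. It also lost its call without replicate a of BME day 5 (adjusted p = 0.0697) and without replicate b or c of BME + COL1 (0.0547 and 0.0551).

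Col11a2, a chain of type XI collagen, which lies inside cartilage fibrils, measured 1.30, 1.39 and 2.20 FPKM at day 1, 1.98, 1.14 and 2.68 at day 5 on BME, and 0.426, 0.404 and 0.296 on BME + COL1. Its BME libraries lay above all BME + COL1 libraries, by 2.03 at day 5 (SE 0.31, adjusted p = 0.000237, limma) or 1.06 with 1 FPKM added, and its partner Col11a1 reached at most 0.00859 FPKM. Col27a1 measured 3.69, 4.90 and 4.80 FPKM at day 1, 2.35, 1.45 and 2.56 at day 5 on BME, and 2.61, 2.81 and 2.38 on BME + COL1. It fell by 1.07 with time on BME (SE 0.20, adjusted p = 0.00594, limma), and the groups at day 5 overlapped (-0.32, SE 0.20, adjusted p = 0.17).

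Type IV collagen forms the network of basement membranes, most widely as trimers of Col4a1 with Col4a2. Neither was expressed: Col4a1 reached at most 0.128 FPKM and Col4a2 at most 0.338. Col4a5 was the 1 type IV chain that was, with 42.2, 43.9 and 46.8 FPKM at day 1, 38.8, 48.9 and 40.2 at day 5 on BME, and 19.9, 20.6 and 18.4 on BME + COL1. All BME libraries lay above all BME + COL1 libraries. Col4a5 was higher on BME by 1.11 at day 5 (SE 0.10, adjusted p = 9.2e-06, limma) and lower by 1.17 on BME + COL1 than at day 1 (SE 0.10, adjusted p = 1.2e-05), with no call over time on BME (-0.06, SE 0.10, adjusted p = 0.646). The transcript NM_001163155 carried 80.1% to 89.9% of its FPKM. In the known trimers Col4a5 joins Col4a6, or Col4a3 and Col4a4. Col4a6 reached at most 0.0754 FPKM, Col4a3 0.181 and Col4a4 0.125.

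Type IV genes lie in head-to-head pairs. In the deposited annotation Col4a1 and Col4a2 start 2 bases apart, Col4a4 and Col4a3 71 bases apart, and Col4a6 and Col4a5 1342 bases apart on chromosome X. The first and second pairs were unexpressed on both sides, whereas the pair on chromosome X was expressed on 1 side, with Col4a5 263-fold to 8851-fold above Col4a6 by library. The highest of these ratios rests on 0.00553 FPKM of Col4a6. The windows before both starts, treated as above, are shown for this pair. Col4a5 spans chrX:137909962-138123778 (plus strand, 52 exons) and Col4a6 chrX:137599946-137908619 (minus strand, 45 exons).
Col4a5, chrX:137909712-137909911, plus strand: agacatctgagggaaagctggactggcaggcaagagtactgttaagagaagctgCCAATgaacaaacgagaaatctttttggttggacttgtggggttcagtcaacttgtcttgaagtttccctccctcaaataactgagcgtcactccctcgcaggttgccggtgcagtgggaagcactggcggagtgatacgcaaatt
Col4a6, chrX:137908670-137908869, minus strand: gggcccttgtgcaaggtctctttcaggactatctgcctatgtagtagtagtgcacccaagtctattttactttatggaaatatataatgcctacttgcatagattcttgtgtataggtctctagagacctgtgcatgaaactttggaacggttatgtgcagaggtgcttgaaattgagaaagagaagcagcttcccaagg
The window of Col4a5 held 6 CG dinucleotides and 1 CCAAT match, 191 bases before the start. That of Col4a6 held 1 CG dinucleotide and no match.

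Type VI collagen, the beaded filament, is made of Col6a1, Col6a2 and another chain, most often Col6a3, which assemble before secretion. Col6a1 measured 129, 98.8 and 256 FPKM at day 1, 328, 268 and 383 at day 5 on BME, and 70.5, 70.5 and 71.0 on BME + COL1. Col6a2 measured 47.6, 34.3 and 112 FPKM at day 1, 119, 77.0 and 136 at day 5 on BME, and 35.8, 35.2 and 33.6 on BME + COL1. Col6a3 measured 13.5, 13.3 and 19.7 FPKM at day 1, 13.2, 2.92 and 11.8 at day 5 on BME, and 0.869, 0.873 and 0.781 on BME + COL1. Each of the 3 chains was above all BME + COL1 libraries in every BME day 5 library. The alternatives to Col6a3, which are Col6a4, Col6a5 and Col6a6, reached at most 0.00507 FPKM.

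Between the matrices at day 5 Col6a1 was higher on BME by 2.19 (SE 0.29, adjusted p = 0.000102, limma), Col6a2 by 1.63 (SE 0.38, adjusted p = 0.00314) and Col6a3 by 3.06 (SE 0.47, adjusted p = 0.000254), or 2.28 with 1 FPKM added. Over time on BME, 1 of the 3 chains had a call. Col6a1 rose by 1.12 (SE 0.29, adjusted p = 0.021, limma), Col6a2 had no call at 0.92 (SE 0.38, adjusted p = 0.0857), and Col6a3 had no call at -0.97 (SE 0.47, adjusted p = 0.132), or -0.29 without replicate b of BME day 5. The rise of Col6a1 had an adjusted p of 0.0746 without replicate a of BME day 1, 0.0701 without its replicate b, 0.0593 without replicate c of BME day 5 and 0.0814 with only the 6 libraries compared. Without replicate c of BME day 1, which held 256 FPKM, Col6a1 rose by 1.51 and Col6a2 by 1.41 (adjusted p = 0.00705 for Col6a2). On BME + COL1 Col6a3 was 16.3-fold lower than at day 1 (log2 change -4.03, SE 0.47, adjusted p = 7.3e-05, limma) or -3.14 with 1 FPKM added, having passed the filter through its BME libraries. Col6a1 was lower by 1.07 (SE 0.29, adjusted p = 0.00964, limma) and Col6a2 had no call at -0.70 (SE 0.38, adjusted p = 0.126).

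The plain ratio of 2 chains within a library does not depend on how the library is scaled. The log2 ratios and their tests add 0.1 FPKM to each chain, so they can depend on it where a chain is low, as Col6a3 is on BME + COL1. Of 12 pairs of partner chains that were set out, 2 had both members above 1 FPKM in a library, and both are pairs of type VI. The ratio of Col6a1 to Col6a2 was 2.27 to 2.88 at day 1, 2.74 to 3.47 at day 5 on BME and 1.97 to 2.11 on BME + COL1. These chains therefore stayed within a narrow range of each other, and their ratio was lower on BME + COL1 than in every other library. The ratio of Col6a3 to Col6a1 was 0.0772 to 0.134 at day 1, 0.0109 to 0.0403 at day 5 on BME and 0.0110 to 0.0124 on BME + COL1, so that all day 1 libraries lay above all day 5 libraries. In log2 the ratio of Col6a3 to Col6a1 differed by -2.09 between day 5 and day 1 on BME and by 0.87 between the matrices at day 5, and the latter was 0.10 with 1 FPKM added in place of 0.1. The ratios of Col5a3 to Col5a1 and of Col6a3 to Col6a2 were looked at after their values were seen. Col5a3 stood 4.36-fold to 5.11-fold above Col5a1 at day 1, 1.65-fold to 2.67-fold at day 5 on BME and 1.61-fold to 1.70-fold on BME + COL1.

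Exact permutation tests of these ratios, with 3 libraries against 3 and two-sided, cannot give a p below 0.1. Of 12 such exact permutation tests over the 4 pairs, 9 gave p = 0.1 (0.133 after adjustment over the 12), which is the smallest they can give. The ratios that overlapped between groups were Col6a1 to Col6a2 over time on BME (exact permutation p = 0.4), and Col6a3 to Col6a1 (exact permutation p = 0.4) and Col5a3 to Col5a1 (exact permutation p = 0.3) between the matrices.

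**Figure D4:**
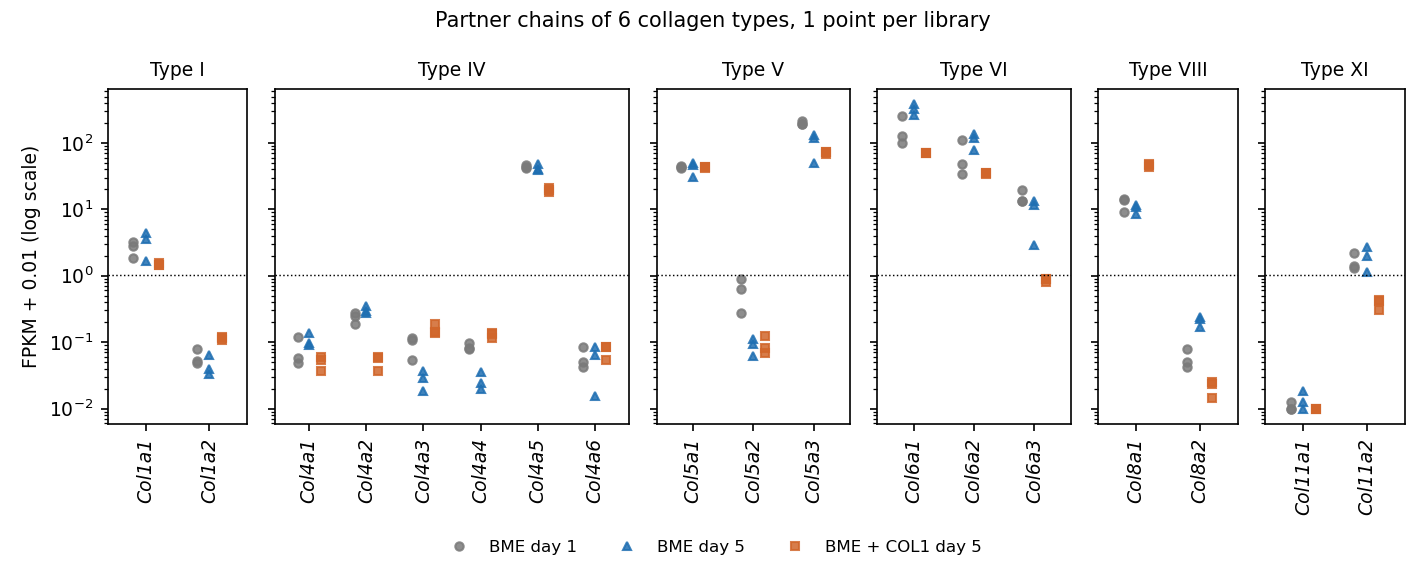
FPKM plus 0.01 of the chains of 6 collagen types on a log scale, 1 point per library, with the dotted line at 1 FPKM. Type VI has 3 chains above the line on BME, whereas types I, IV, VIII and XI each have 1 chain above it and type V lacks Col5a2.

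Col7a1, the chain of anchoring fibrils, needs no partner gene. It measured 14.7, 18.9 and 17.0 FPKM at day 1, 4.41, 4.11 and 5.34 at day 5 on BME, and 2.95, 2.96 and 2.43 on BME + COL1. The 3 groups did not overlap. Col7a1 fell by 1.85 with time on BME (SE 0.13, adjusted p = 0.000113, limma) and was higher by 0.71 on BME than on BME + COL1 at day 5 (SE 0.13, adjusted p = 0.000717). It was lower by 2.56 on BME + COL1 than at day 1 (SE 0.13, adjusted p = 6.3e-07). These calls held under each alternative that was run.

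Col8a1, a short-chain collagen of hexagonal lattices known from endothelial basement membranes, moved opposite to the chains that were called higher on BME. It measured 13.9, 14.3 and 8.99 FPKM at day 1, 11.5, 10.7 and 8.63 at day 5 on BME, and 45.9, 48.8 and 43.2 on BME + COL1. Each BME + COL1 library lay above all 6 BME libraries. Col8a1 was lower by 2.16 on BME than on BME + COL1 at day 5 (SE 0.17, adjusted p = 4.7e-06, limma) and higher by 1.91 on BME + COL1 than at day 1 (SE 0.17, adjusted p = 1.7e-05). Its change with time on BME was -0.25 (SE 0.17, adjusted p = 0.276), and -0.46 without replicate c of BME day 1 (adjusted p = 0.0323, limma). It was the 1 chain of 15 called higher on BME + COL1 in either comparison, and this count stayed at 1 when any library was left out.

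Its partner Col8a2 measured 0.0317, 0.0407 and 0.0676 FPKM at day 1, 0.157, 0.215 and 0.230 at day 5 on BME, and 0.0154, 0.0138 and 0.00454 on BME + COL1. The partners thus had their highest values in different groups, with Col8a2 far below 1 FPKM in each. The third lattice chain, Col10a1 of growth cartilage, measured 0.102 to 0.140 FPKM at day 1, 0.497 to 0.675 at day 5 on BME and 0.0128 to 0.0360 on BME + COL1. The windows before Col8a1 (chr16:57624369-57754850, minus strand, 4 exons) and Col8a2 are shown as another pair in which 1 partner was expressed. Those of the type I and type XI pairs, which were also split, were not read.
Col8a1, chr16:57754901-57755100, minus strand: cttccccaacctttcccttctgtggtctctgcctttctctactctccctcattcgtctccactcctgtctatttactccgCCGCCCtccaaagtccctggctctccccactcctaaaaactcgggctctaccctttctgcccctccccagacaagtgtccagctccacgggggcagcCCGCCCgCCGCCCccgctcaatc
Col8a2, chr4:125963788-125963987, plus strand: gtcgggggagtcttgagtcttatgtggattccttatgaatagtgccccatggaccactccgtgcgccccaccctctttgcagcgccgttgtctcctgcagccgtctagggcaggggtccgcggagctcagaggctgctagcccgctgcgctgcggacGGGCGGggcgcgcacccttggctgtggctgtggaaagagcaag
Here the expressed chain had fewer CG dinucleotides (9) than its unexpressed partner (15), unlike the type IV and type V windows. Matches to the GC box stood in both windows, at 3 places before Col8a1 and at 1 before Col8a2.

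Of the fibril-associated collagens, Col12a1 was called in all 3 comparisons. Type XII sits on the surface of type I fibrils in tissue under load. Col12a1 measured 32.2, 30.9 and 33.3 FPKM at day 1, 74.2, 61.3 and 68.3 at day 5 on BME, and 11.0, 11.6 and 9.87 on BME + COL1. The 3 groups did not overlap, with day 1 between the others. Col12a1 was 6.22-fold higher on BME than on BME + COL1 at day 5 (log2 change 2.64, SE 0.09, adjusted p = 6.9e-08, limma), rose by 1.07 with time on BME (SE 0.09, adjusted p = 0.000248), and was lower by 1.56 on BME + COL1 than at day 1 (SE 0.09, adjusted p = 1.5e-06). These calls, too, held under each alternative.

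Col16a1 measured 9.05, 9.20 and 9.13 FPKM at day 1, 6.13, 4.07 and 5.93 at day 5 on BME, and 5.58, 5.71 and 5.39 on BME + COL1. It fell by 0.77 with time on BME (SE 0.13, adjusted p = 0.00435, limma). On BME + COL1 at day 5 it was lower by 0.70 than on BME at day 1 (SE 0.13, adjusted p = 0.00136). The matrices overlapped at day 5 (-0.07, SE 0.13, adjusted p = 0.651), although with TPM Col16a1 was called higher on BME by 0.27. Col20a1, which was not tested, measured 0.361, 0.372 and 1.07 FPKM at day 1, 0.791, 0.330 and 1.17 at day 5 on BME, and 0.0424, 0.0428 and 0.0518 on BME + COL1, so that it reached 1 FPKM in 2 libraries. The other fibril-associated chains, among them those of type IX, reached at most 0.407 FPKM (Col9a3).

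Col18a1, whose collagen carries heparan sulphate in basement membranes and whose end fragment is endostatin, was among the 3 most abundant chains in each group. It measured 169, 175 and 203 FPKM at day 1, 132, 61.4 and 132 at day 5 on BME, and 84.5, 83.5 and 79.9 on BME + COL1. Both day 5 groups lay below day 1. Col18a1 fell by 0.83 with time on BME (SE 0.25, adjusted p = 0.037, limma) and was lower by 1.14 on BME + COL1 than at day 1 (SE 0.25, adjusted p = 0.0034). The fall on BME had an adjusted p of 0.110 with only the libraries of that comparison, of 0.0679 without the filter on low values, and of 0.0793, 0.0895 or 0.105 without replicate a, b or c of BME day 1. It was also above the threshold when any one of the BME + COL1 libraries was left out (0.0601 to 0.0634). Between the matrices there was no call (0.31, SE 0.25, adjusted p = 0.295), and Col18a1 was higher on BME by 0.67 without replicate b of BME day 5 (adjusted p = 4.2e-05, limma). The transcript NM_009929 carried 99.1% to 99.6% of its FPKM in each library, so that the changes are those of this form.

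Col23a1, a membrane-bound collagen that tumour cells can shed, measured 2.70, 2.30 and 4.58 FPKM at day 1, 4.89, 0.577 and 5.25 at day 5 on BME, and 1.49, 1.54 and 1.34 on BME + COL1. Replicate b of BME day 5 lay below every other library, and no comparison gave a call. Between the matrices the difference was 0.76 (SE 0.67, adjusted p = 0.327, limma), and 1.73 without that library (adjusted p = 0.000173, limma). Over time on BME the value went from -0.27 to 0.71 without it (adjusted p = 0.0489, limma). The difference of -1.02 between BME + COL1 and day 1 (adjusted p = 0.205, limma) was called without it (0.00228) and with only the 6 libraries compared (0.00661).

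Genes that make, cut, link and bind collagen were set beside the chains. Of 31 genes of collagen synthesis and processing, 20 were tested. Between the matrices 8 of them were higher on BME, 6 were lower and 6 had no call, beside 30.3% and 45.3% of all tested genes, with a median of -0.03. Serpinh1, the chaperone of procollagen, measured 98.6 ± 10.9 FPKM at day 5 on BME and 99.8 ± 0.34 on BME + COL1 (-0.02, SE 0.09, adjusted p = 0.832, limma). P4ha3, a subunit of prolyl 4-hydroxylase, measured 10.9, 8.12 and 12.6 FPKM at day 5 on BME and 1.22, 1.14 and 0.917 on BME + COL1, a difference of 3.15 (SE 0.20, adjusted p = 1.1e-06, limma) or 2.45 with 1 FPKM added. Leprel4, an endoplasmic reticulum protein that takes part in collagen modification, was higher on BME by 2.14 (SE 0.21, adjusted p = 1.4e-05).

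Genes lower on BME included 3 that act on secreted procollagen or on fibrils, whereas Bmp1 and Loxl3, which also act there, were higher. Bmp1 was higher on BME by 0.86 (SE 0.095, adjusted p = 3.0e-05, limma) and Loxl3 by 1.035 (SE 0.24, adjusted p = 0.0029). Adamts14, a protease for the amino-terminal propeptide, measured 0.408, 0.269 and 0.226 FPKM at day 5 on BME and 2.43, 2.22 and 2.02 on BME + COL1, lower on BME by 2.56 (SE 0.22, adjusted p = 7.2e-06, limma). It passed the filter through its BME + COL1 libraries, and the difference was -1.31 with 1 FPKM added in place of 0.1. Pcolce, which enhances removal of the other propeptide, measured 42.0, 43.9 and 40.3 FPKM on BME and 99.4, 99.5 and 99.0 on BME + COL1 (-1.24, SE 0.08, adjusted p = 1.4e-06). The crosslinking enzyme Loxl4 differed by -0.96 (SE 0.28, adjusted p = 0.0112). Over time on BME, 6 of the 20 rose and 2 fell (9.09% and 22.2% of all tested genes), and between BME + COL1 and day 1, 5 were higher and 5 lower (34.2% and 31.8%).

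Of 10 collagen receptor genes, 3 were tested. Ddr1, a receptor kinase that binds several collagens, measured 31.4 ± 0.68 FPKM at day 1, 18.9 ± 0.37 at day 5 on BME and 7.67 ± 0.44 on BME + COL1, higher on BME at day 5 by 1.29 (SE 0.07, adjusted p = 4.1e-07, limma). Ddr2 was higher by 0.30 (SE 0.12, adjusted p = 0.0407) and the integrin chain Itgb1 had no call (-0.04, SE 0.09, adjusted p = 0.742). Of 5 genes of basement membrane partners, 3 were tested. The perlecan gene Hspg2 (1.44) and Agrn (0.55) were higher on BME and Sparc (-0.35) lower. For both lists the shares over all tested genes between the matrices were 30.3% higher and 45.3% lower.

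Of 6 genes that associate with fibrils, 2 were tested and both were higher on BME, beside 30.3% of all tested genes (45.3% lower). Fn1 differed by 0.55 (SE 0.13, adjusted p = 0.00272, limma). Postn, the gene of periostin, which binds collagen and is also a fibroblast marker, measured 4.59, 3.17 and 3.66 FPKM at day 1, 20.3, 24.2 and 26.2 at day 5 on BME, and 0.166, 0.121 and 0.122 on BME + COL1, higher on BME by 6.64 (SE 0.15, adjusted p = 2.0e-08, limma). Postn passed the filter through its BME libraries, and the difference was 4.43 with 1 FPKM added and 7.40 with TPM.

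The sum of the fibroblast markers differed between the groups. Of 12 markers, 5 reached 1 FPKM (Pdgfra, Pdgfrb, Col1a1, Postn and Acta2), and the sum of the list was 24.3 to 31.8 FPKM at day 1, 50.9 to 62.6 at day 5 on BME and 8.05 to 8.47 on BME + COL1. Pdgfra, Pdgfrb and Postn were lowest on BME + COL1, whereas Acta2 (means of 0.496, 0.346 and 3.46 FPKM in the same order), Col1a2 and Col3a1 were highest there. Of the same list, Lum and Fbln1 were listed at 0, and Dcn, Thy1, Fap, Col1a2 and Col3a1 reached at most 0.111 FPKM. The summed epithelial markers were 1464 to 1628 FPKM at day 1, 785 to 1170 at day 5 on BME and 2364 to 2471 on BME + COL1. Krt8 and Krt18 made up most of each sum. Of the 6 markers that reached 1 FPKM, Krt8, Krt18 and Krt7 had their highest mean on BME + COL1. Epcam, Cdh1 and Krt14 had it at day 1 (Cdh1 means of 34.25, 16.43 and 31.13 FPKM in the same order). None of 5 endothelial markers and 2 of 6 haematopoietic markers (Cd68 and Cd14) reached 1 FPKM. The part of these shifts in the collagen values was not tested.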

How the data were processed

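RNA of 9 D2.0R cultures, 3 biological replicates per group, was sequenced on the Illumina platform. The deposited values are FPKM per transcript, which the authors obtained with Cufflinks (version not given in the sources used here), as other values written in the attribute text of each library's annotation file. Tools in the submitters' processing notes are TopHat2 2.0.8, Trimmomatic 0.30, CASAVA 1.8.4 and Partek, and builds are mm9 and NCBIM37. FPKM divide by all mapped fragments, so a shift in a few abundant genes moves all values of a library.

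FPKM of 30563 transcripts were added up for each symbol. The 10497 genes that averaged 1 FPKM or more were fitted with limma 3.58.1 (R 4.3.3) on log2(FPKM + 0.1), with a trend on mean level, a mean for each of the 3 groups and 1 spread shared by all 9 libraries (6 degrees of freedom). Tests were two-sided, adjusted by Benjamini and Hochberg within a comparison at 0.05, and tested on simulated data. Fold changes on this scale understate those of low genes. Cufflinks gave 95% intervals that lay, in the median over libraries, 1.06% (Col5a3) to 22.9% (Col20a1) to either side of a chain's value and cover counting error only.

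Each expressed chain was named, and of every other list up to 3 rises and 3 falls between the matrices. Serpinh1, Bmp1, Loxl3, the receptors, the basement membrane partners and Fn1 were named beyond that rule. The members and lists were chosen with earlier results of these data known. Alternatives were a pseudocount of 1 FPKM, no filter, TPM, median-ratio scaling, only the libraries compared, a replicate block, the most abundant transcript, and leaving out each library. Windows before gene starts were read from NCBIM37. Ratios were tested over all arrangements of the libraries with numpy 2.4.6, and plots drawn with matplotlib 3.10.9.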

Additional observations from a re-analysis of the deposited data

How the results depend on the processing

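Without the filter on low values, which adds chains below 1 FPKM (42 tested), 14 chains were higher and 5 lower on BME than on BME + COL1. With time on BME, 4 rose and 7 fell, and 4 were higher and 17 lower on BME + COL1 than at day 1. Of the 18136 genes in that fit, 4580 were higher and 5213 lower between the matrices. With time 1303 of them rose and 1995 fell, and 3779 were higher and 4236 lower on BME + COL1 than at day 1. With only the 6 libraries of the comparison, 1 chain rose and 3 fell with time on BME, beside 452 and 618 of all tested genes (954 and 2327 in the main fit). Leaving out 1 library gave 7 to 12 higher between the matrices, 1 to 5 that rose and 3 to 5 that fell with time, and 10 to 12 lower on BME + COL1 than at day 1. The 5 came without replicate b of BME day 5, 1 without replicate a or b of BME day 1 or c of BME day 5, and the 3 without replicate a or b of BME day 1. Over all tested genes the ranges with 1 library left out were 2916 to 3609 higher between the matrices, 533 to 1267 that rose and 1018 to 3248 that fell with time, and 2925 to 3820 lower on BME + COL1 than at day 1. In the ratio of Col6a3 to Col6a1 between the matrices the range with 1 library left out was 0.49 to 1.42, the latter without replicate b of BME day 5.

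Signs turned, with a call under the alternative, with TPM in Col5a1 (0.28) and Col16a1 (0.27) between the matrices, and without replicate b of BME day 5 in Col5a1 between the matrices (0.15) and with time (0.15) and in Col23a1 with time (0.71). Leaving out 1 library moved these from -0.19 to 0.15, -0.20 to 0.15 and -0.78 to 0.71, the lowest without replicate c of BME day 5. Without a call, signs also turned between the matrices in Col27a1 with TPM (0.01), in Col5a1 (0.12) and Col16a1 (0.11) with median-ratio scaling and in Col16a1 without replicate b of BME day 5 (0.11), and with time in Col4a5 and Col5a1 with TPM (0.06 and 0.04) and with median-ratio scaling (0.08 and 0.07). Leaving out 1 library also turned, without a call and to within 0.1 of 0, Col1a1, Col4a5, Col11a2 and Col23a1 with time and Col5a1 between BME + COL1 and day 1. The median of all tested genes between the matrices was -0.18 with FPKM, 0.16 with TPM and -0.00018 with median-ratio scaling. Col5a3 and Col18a1 were called between the matrices with TPM (0.70 and 0.65), as was Col18a1 with median-ratio scaling (0.49). With TPM, 20 chains reached a value of 1 in a library, against 16 with FPKM. Those added were Col4a2, Col5a2, Col9a3 and Col10a1, which are counted as not expressed above.

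No source ties replicates of the same letter to a shared day. Same-letter libraries correlated at -0.23 to 0.10 in their deviations from the group means. Libraries of different letters were not compared in this way, so these values cannot decide whether the letters mark a shared day. With a replicate block 8 chains were higher and 1 lower between the matrices, 2 rose and 5 fell with time, and 1 was higher and 10 lower on BME + COL1 than at day 1, with no call of a chain changed. Over all tested genes the counts with the block were, in the same order, 3126 and 4713, 858 and 2061, and 3533 and 3275. Depth limits the chains under 1 FPKM, for which no count was tested. The causes of these shifts were not tested.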
